A study of Mus musculus with 2 samples.

Results

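The genes described here were 40 cell cycle genes fixed by name, 20 that act in S phase and 20 that act in G2 and M phase. All 40 were measured, of 16388 genes present in both count matrices. The source tissue was wild-type mouse second heart field, a pool of pharyngeal and splanchnic mesoderm from which the growing heart tube recruits cells, and their RNA was read by droplet single-cell sequencing with molecular barcodes (UMIs). At E9.5, 533 cells were split by dissected position into 3 libraries, anterior (54), middle (61) and posterior (418). At E10.5, 967 cells were split into 4 libraries, outflow tract (31), anterior (45), middle (331) and posterior (560). The labels name no allele or treatment beside wild type. All cells were labelled Osr1-positive, and all 1500 held at least 1 UMI of Osr1, a zinc finger gene of lateral plate and intermediate mesoderm. The sources used here do not say how they were selected or how many embryos were pooled.

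Of 11 listed markers of pharyngeal mesoderm and second heart field, all had counts in 6 of the 7 libraries. In the E10.5 anterior library Fgf10, Fgf8, Nkx2-5 and Hand2 were at 0. Median depth per cell ran from 23028 to 31257 UMIs in the E9.5 libraries and from 5263 to 6084 in the E10.5 libraries, and library totals ran from 196599 (E10.5 outflow tract) to 13650408 UMIs (E9.5 posterior). Only 1 barcode was shared between libraries of a stage, at E10.5. With 1 sample per stage, stage cannot be told apart from sample, depth or embryo sex. Xist, transcribed in female cells, had a UMI in at most 0.239% of the cells of any E9.5 library and in 86.7% to 95.4% of those of the E10.5 libraries.

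A dividing cell copies its DNA in S phase, checks and prepares it in G2 and separates the copies in M phase. E2F transcription factors drive the S phase genes, which encode the replicative helicase, nucleotide-making enzymes and chromatin assembly factors. The MuvB complex with B-Myb and FoxM1 drives the later wave of cyclins, kinases, kinetochore and spindle genes, many through a cell cycle homology region (CHR) next to CCAAT boxes. Second heart field progenitors are known to keep dividing while they are added to the heart tube, where division slows as muscle differentiates.

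The 2 sets differed in how many of their promoters held the motif letters of these factors. RefSeq windows (GRCm38.p6, 250 bases before to 50 after each start) were found for 18 of the S phase and 17 of the G2/M genes. Mcm4, Gins2, Ccna2, Aurkb and Tpx2 had none in the table. The CHR letters TTTGAA or TTCGAA, searched on both strands, were in the windows of 13 of the 17 G2/M genes (76.5%) and 3 of the 18 S phase genes (16.7%), against 16.6% of the 12115 measured genes with a window. CCAAT, also on both strands, was found for 15 G2/M genes (88.2%) and 11 S phase genes (61.1%), against 42.8% of measured genes. All 13 G2/M genes with CHR letters also held CCAAT, a combination found for 8.20% of measured genes. E2F letters were taken as TTCCCGC or TTCGCGC on both strands. The forms TTGCCGC and TTGGCGC were counted as well. They went the other way, with 11 S phase genes (61.1%) and 4 G2/M genes (23.5%) against 18.4% of measured genes. E2F matches on opposite strands can share bases, and the ATTGG of a CCAAT box can overlap TTGGCGC. These matches describe letters in a window and not bound sites.

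The following windows show the letters in genes whose levels are described later, each as the 200 bases before the RefSeq start, 5′ to 3′ on the gene's strand. Mcm5 and Mcm6 encode subunits of the replicative helicase and lie at chr8:75109309-75109508 (plus strand) and chr1:128359706-128359905 (minus strand). In these capitals mark only E2F letters, where a run of 10 capitals holds an overlapping pair of matches, and CCAAT boxes are left in lower case.
Mcm5: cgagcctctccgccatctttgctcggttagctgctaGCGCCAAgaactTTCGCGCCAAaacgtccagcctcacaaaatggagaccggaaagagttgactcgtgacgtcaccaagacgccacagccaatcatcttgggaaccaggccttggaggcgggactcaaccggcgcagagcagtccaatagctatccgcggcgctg
Mcm6: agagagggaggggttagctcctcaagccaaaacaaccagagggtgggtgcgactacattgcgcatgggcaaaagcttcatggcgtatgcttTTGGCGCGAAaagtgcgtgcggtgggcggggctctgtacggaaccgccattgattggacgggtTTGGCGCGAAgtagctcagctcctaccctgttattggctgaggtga
Top2a encodes the topoisomerase that untangles sister chromatids, Kif11 the motor that pushes spindle poles apart, and Mki67 the Ki-67 protein that coats mitotic chromosomes. Their windows lie at chr11:99024190-99024389 (minus strand), chr19:37376182-37376381 (plus strand) and chr7:135716380-135716579 (minus strand), and capitals mark only CHR and CCAAT letters.
Top2a: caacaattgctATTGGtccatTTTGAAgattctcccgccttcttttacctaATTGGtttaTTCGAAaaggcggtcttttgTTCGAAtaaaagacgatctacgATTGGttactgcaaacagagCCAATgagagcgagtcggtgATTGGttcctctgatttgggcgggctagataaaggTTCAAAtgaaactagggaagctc
Kif11: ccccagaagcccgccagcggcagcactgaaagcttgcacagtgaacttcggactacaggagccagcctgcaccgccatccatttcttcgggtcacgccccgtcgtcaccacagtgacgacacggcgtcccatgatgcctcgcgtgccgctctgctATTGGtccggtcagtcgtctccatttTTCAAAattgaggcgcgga
Mki67: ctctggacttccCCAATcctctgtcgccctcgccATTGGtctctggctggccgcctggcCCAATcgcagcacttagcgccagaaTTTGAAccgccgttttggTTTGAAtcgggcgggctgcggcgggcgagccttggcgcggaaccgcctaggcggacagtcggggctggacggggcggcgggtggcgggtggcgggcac
Kif11 held 1 CHR match, 19 bases before its start, beside an ATTGG that began 45 bases before it, while Mki67 held 2 CHR and 3 CCAAT matches.

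The summed share of S phase transcripts was lower at E10.5 than at E9.5 at each of the 3 matched positions, and that of G2/M transcripts was higher at each. Shares were counted after each cell had been thinned to 4500 UMIs, so that depth no longer differed. From anterior over middle to posterior, the 20 S phase genes made up 0.249%, 0.346% and 0.312% of UMIs at E9.5 (means over cells). At E10.5 they made up 0.228% in the outflow tract and 0.234%, 0.228% and 0.249% in the anterior, middle and posterior libraries. Anterior S phase shares of the 2 stages thus lay close together, and the gap came at the middle and posterior positions. The 20 G2/M genes made up 0.264%, 0.291% and 0.302% of UMIs at E9.5 in the same order. The E10.5 values were 0.568% in the outflow tract and 0.496%, 0.531% and 0.467% in the anterior, middle and posterior libraries. No E9.5 library reached any E10.5 library in this sum.

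**Figure D1:**
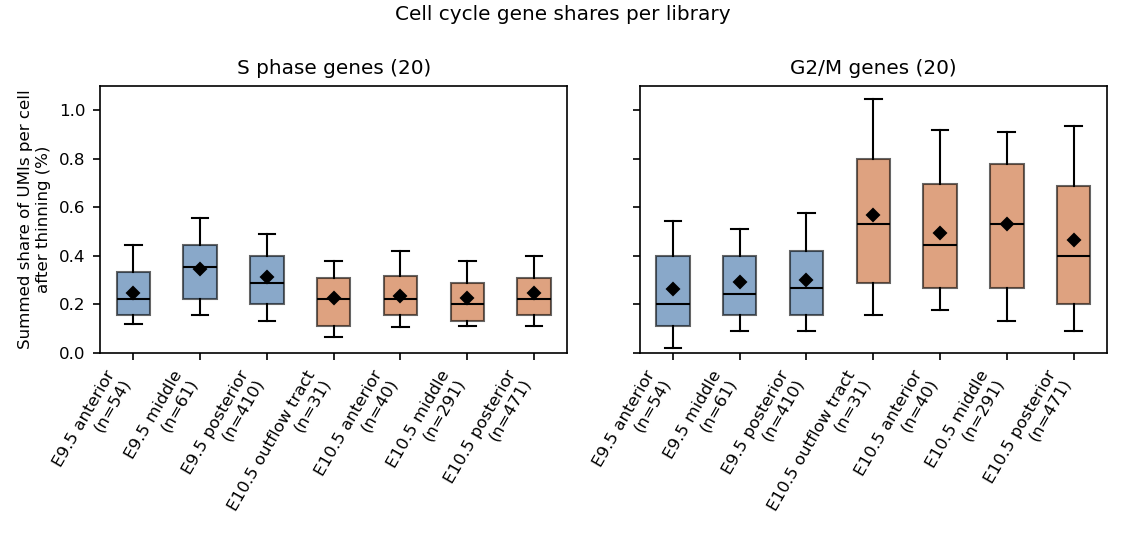
Summed share of UMIs per cell (%, vertical axis) of the 20 S phase genes (left) and 20 G2/M genes (right) in the 7 libraries, with the number of cells; boxes span the quartiles, lines are medians, whiskers the 10th to 90th percentile and diamonds means. G2/M means sit between 0.264% and 0.302% at E9.5 (blue) and between 0.467% and 0.568% at E10.5 (orange).

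Over the 3 positions dissected at both stages, the S phase share was 0.302% ± 0.0497 (SD, n = 3 libraries of 1 sample) at E9.5, and 0.237% ± 0.0106 for the E10.5 libraries. The mean difference was -0.0653 percentage points with an SD of 0.0521 over positions, so the positions disagreed in its size. For the G2/M share the values were 0.285% ± 0.0195 and 0.498% ± 0.0319, a difference of 0.213 ± 0.0408 percentage points. G2/M over S phase share came to a ratio of 0.956 ± 0.111 at E9.5 and of 2.11 ± 0.225 at E10.5. Each stage was 1 sample, so no test was made, and the SDs describe positions and not animals. In summed counts, fewer cells in a phase and less RNA per cell cannot be told apart. The share of UMIs from haemoglobin genes also differed by stage, from 0.00337% to 0.0152% at E9.5 and from 0.101% to 0.556% at E10.5, and its part in the result was not tested. Mitochondrial shares overlapped, at 2.04% to 2.13% and 0.912% to 2.83%.

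Cells spread widely within every library. In E9.5 posterior cells the median G2/M share was 0.267% with quartiles of 0.156% and 0.422%, and in E10.5 posterior cells it was 0.400% with quartiles of 0.200% and 0.689%. The upper quartile of the E10.5 libraries lay between 0.689% and 0.800%, against 0.400% to 0.422% at E9.5. Cells with no G2/M UMI after thinning were few, with 4 of 54 in the E9.5 anterior library, 1 of 410 in the E9.5 posterior and 4 of 471 in the E10.5 posterior library. Every thinned cell held at least 1 S phase UMI.

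Among single S phase genes, Ung and Uhrf1 showed the widest stage gaps. Levels are given as CPM, counts scaled to the total UMIs of the library, which are not scaled to transcript length and so are not compared between genes. At E10.5, 11 of the 20 S phase genes were lower at all 3 positions, against 28.8% of the 11013 genes with at least 50 counts, and 1, Tyms, was higher at all 3, against 21.6%. The median of their mean log2 folds was -0.43, where that of all genes was -0.17. Ung was the only S phase gene at least 2-fold lower at all 3 positions, as were 2.96% of all genes. In 8 genes (Mcm5, Mcm6, Pcna, Gins2, Cdt1, Uhrf1, Hells and Ung) every E9.5 library lay above every E10.5 library, against 14.5% of all genes.

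The genes that license and unwind replication origins were mostly lower at E10.5, with 6 of 10 lower at all 3 positions. Levels below run from anterior over middle to posterior, with the outflow tract put first at E10.5. Mcm5 stood at 114, 187 and 165 CPM at E9.5 and then at 71.2, 55.1, 53.9 and 106 CPM at E10.5. The stages did not overlap, and the E10.5 posterior value lay nearest to those of E9.5. Its log2 folds (E10.5 minus E9.5) were -1.05 anterior, -1.79 middle and -0.65 posterior, and the 95% counting interval of each lay below 0. All such intervals cover counting error only. Cdt1, which loads the helicase onto origins, stood at 59.4, 60.6 and 62.6 CPM at E9.5 and between 22.0 and 31.9 CPM at E10.5, a mean log2 fold of -1.18. Mcm7, another helicase subunit, stood at 135, 193 and 200.1 CPM at E9.5 and between 90.6 and 171 CPM at E10.5, so its stages overlapped. Mcm3 and Mcm4 had no shared direction over positions, with mean log2 folds of -0.13 and 0.21.

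Of the enzymes that supply nucleotides or remove uracil from DNA, Ung differed most. This uracil glycosylase stood at 97.2, 124 and 91.7 CPM at E9.5. At E10.5 it stood at 50.9, 23.6, 29.9 and 44.9 CPM. All E9.5 values were thus above all E10.5 values, with log2 folds of -2.04, -2.05 and -1.03 from anterior to posterior and a mean of -1.71. Dut, which breaks down dUTP, overlapped between stages, at 491, 708 and 574 CPM at E9.5 and between 462 and 587 CPM at E10.5. Rrm2, a ribonucleotide reductase subunit, went opposite ways by position, with a log2 fold of 0.89 (0.55 to 1.22) anterior and of -0.62 (-0.73 to -0.51) posterior. Its levels were 218, 420 and 343 CPM at E9.5 and 310, 406, 306 and 223 CPM at E10.5. Tyms, thymidylate synthase, was slightly higher at E10.5 at each position, at 138, 192 and 188 CPM at E9.5 and between 177 and 225 CPM at E10.5, with log2 folds between 0.14 and 0.36.

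At the fork and on new chromatin, Uhrf1, which guides maintenance DNA methylation, stood at 108, 156 and 129 CPM at E9.5 and at 56.0, 19.7, 36.7 and 97.1 CPM at E10.5. The E10.5 anterior value rests on 5 UMIs in 45 cells, and the log2 folds ran from -2.46 (-4.10 to -1.20) anterior to -0.41 (-0.58 to -0.24) posterior. Pcna, the sliding clamp of DNA polymerase, stood between 67.9 and 70.6 CPM at E9.5 and between 30.5 and 63.0 CPM at E10.5. Slbp, which binds histone mRNA, had no shared direction, at 175, 252 and 219 CPM and then 254, 291, 281 and 199 CPM.

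Most G2/M genes were higher at E10.5, among them all 6 grouped here under spindle and chromosome structure. At E10.5, 13 of the 20 were higher at all 3 positions, against 21.6% of all genes, and 2, Ccnb1 and Cdc20, were lower at all 3, against 28.8%. The median of their mean log2 folds was 0.72. In the same 13 genes and the same 2 genes, no E9.5 library overlapped any E10.5 library, where 12.3% of all genes had every E10.5 library above every E9.5 library. Nusap1 and Hmmr were at least 2-fold higher at all 3 positions, as were 3.28% of all genes.

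All 6 genes of spindle and chromosome structure were higher at all 3 positions, with mean log2 folds from 0.90 to 1.31. Hmmr, a microtubule-binding spindle protein, stood at 35.5, 55.0 and 54.9 CPM at E9.5. At E10.5 it stood at 148, 114, 119 and 119 CPM. The lowest E10.5 value was above the highest E9.5 value, and the mean log2 fold was 1.31. Nusap1, which bundles spindle microtubules, stood at 67.1, 51.8 and 70.5 CPM and then at 209, 150, 165 and 147 CPM, a mean log2 fold of 1.29. Top2a stood at 203, 291 and 263 CPM and then at 646, 516, 503 and 623 CPM, and its mean log2 fold was 1.13. Both Top2a and Kif11 (1.15) hold the CHR and CCAAT letters shown above, as does Mki67 (1.01). These letters were held by 13 of the 17 G2/M genes with a window, among them Cdc20, whose mean log2 fold was -0.54. Whether the letters go with the stage folds was not tested. Kif11 stood at 30.1, 43.7 and 27.0 CPM at E9.5 and between 68.1 and 107 CPM at E10.5.

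Kinetochore, centromere and passenger genes followed, with 4 of 5 higher at all 3 positions. Cenpf, a kinetochore protein that peaks in G2, stood at 191, 195 and 171 CPM at E9.5 and at 437, 307, 398 and 457 CPM at E10.5. Birc5 (survivin), of the chromosomal passenger complex, stood at 370.3, 355 and 366 CPM and then 529, 437, 523 and 382 CPM. Its stages did not overlap, although the posterior log2 fold was 0.06 with an interval of -0.03 to 0.15. Cenpa, the centromeric histone, was higher anterior (0.81) and middle (0.67) but not posterior (-0.12), with levels of 320.2, 346 and 353 CPM at E9.5 and 524, 563, 550.2 and 325 CPM at E10.5.

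Cyclins and mitotic kinases were the least uniform, with 2 of 7 higher and 1 lower at all 3 positions. Cdk1, the kinase that drives entry into mitosis, stood at 222, 232 and 222 CPM at E9.5 and at 331, 335, 332 and 240.4 CPM at E10.5. Its partner Ccnb1 (cyclin B1) was lower at E10.5 at each position, at 179, 177 and 212 CPM and then 173, 90.6, 154 and 161 CPM. The middle interval of Ccnb1 (-0.44 to 0.03) reached 0. Ccnb2 and Ccna2, the other cyclins, had mean log2 folds of 0.04 and 0.10 but went opposite ways by position. From anterior over middle to posterior the log2 folds were 0.23, 0.21 and -0.34 for Ccnb2. For Ccna2 they were 0.30, 0.32 and -0.31. The 2 partners of the anaphase promoting complex parted: Ube2c, its ubiquitin-conjugating enzyme, had a mean log2 fold of 0.99, and Cdc20, its activator, one of -0.54. Ube2c stood at 390, 413 and 423 CPM and then 880.0, 910, 954 and 619 CPM, and Cdc20 at 183, 165 and 190.1 CPM and then 163, 102, 119 and 151 CPM.

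**Figure D2:**
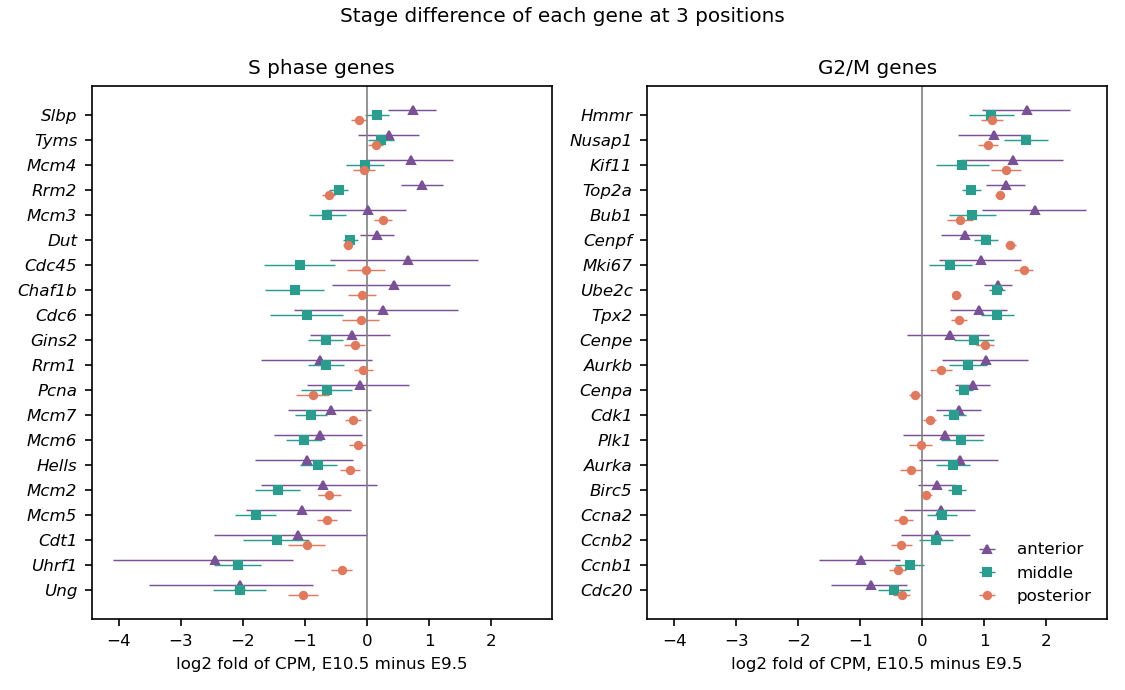
Log2 fold of CPM, E10.5 minus E9.5 (horizontal axis), of each S phase gene (left) and G2/M gene (right) at the anterior, middle and posterior positions, ordered by mean; lines are 95% counting intervals. Ung and Uhrf1 lie lowest with means of -1.71 and -1.65, and Hmmr and Nusap1 highest with 1.31 and 1.29.

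Further cell cycle genes from 3 lists showed smaller stage medians. Of 31 further replication genes, 13 were higher and 7 lower at all 3 positions, with a median of 0.19, opposite in sign to the S phase genes' -0.43. Of 40 further mitotic genes, 17 were higher and 7 lower, with a median of 0.16 against the G2/M genes' 0.72. Of 19 measured regulators with enough counts, such as the E2F and MuvB families, 2 were higher and 8 lower, with a median of -0.38. Scaling libraries by TMM instead of their totals moved the middle log2 folds by 0.12 and those of the other positions by less than 0.1, and the counts of 11 and 13 did not change. Leaving out the anterior libraries gave 17 S phase genes lower at all remaining positions, and leaving out the posterior libraries gave 18 higher G2/M genes. With fewer positions to agree these counts can only stay or rise, so they are no check. The share of all genes under this looser rule was not counted.

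The outflow tract was sampled at E10.5 alone and was set against the anterior library of that stage, 1 library each and so without a test. The summed S phase counts differed by less than counting error, with 450 UMIs against 598 and a log2 fold of -0.04 (-0.22 to 0.14). The summed G2/M counts were higher in the outflow tract, with 1127 UMIs against 1195 in a deeper library and a log2 fold of 0.28 (0.17 to 0.40). Of the G2/M genes 16 lay above 0, where 52% of all genes with at least 10 counts summed over both libraries did, and of the S phase genes 10. The intervals of Cenpe (1.22, 0.50 to 1.97), Aurka (1.02, 0.31 to 1.76), Ccnb1 (0.93, 0.13 to 1.76) and Cenpf (0.51, 0.05 to 0.97) lay above 0. Cenpe is a kinetochore motor and Aurka the kinase of spindle poles.

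Between positions, no difference in either set passed a test, and 2 libraries per position cannot reach a permutation p of 0.05. The posterior S phase share was higher than the anterior one by 0.0635 percentage points at E9.5 and by 0.0143 at E10.5, a mean of 0.0389 ± 0.0348 (SD, n = 2 libraries per group; two-sided exact permutation p = 0.333, the smallest this design allows). The other 5 differences among the 3 positions had exact permutation p-values of 0.667 or 1, and all 6 were 1 after Benjamini-Hochberg adjustment. These permutations did not pair libraries by stage, so the gap between stages entered their spread. Each SD, in contrast, is that of the 2 differences within a stage. For the G2/M share posterior minus anterior gave 0.0378 (E9.5) and -0.0281 (E10.5), so the stages went opposite ways. Posterior minus middle was -0.0264 ± 0.0527 and middle minus anterior 0.0312 ± 0.00605 percentage points for the G2/M share.

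Gene by gene, a fit over the 6 libraries of matched positions (edgeR's quasi-likelihood test with stage as a term, adjusted over 9825 genes) called none of the 40 genes in any pair of positions. On simulated counts this fit called only 12 of 65 genes with a log2 fold of 1 in size. The lack of calls thus does not show that levels were alike. All genes were called at a rate of 0.295% for posterior minus anterior, 0.193% for posterior minus middle and 0% for middle minus anterior. At an unadjusted p under 0.05 there were 2, 0 and 2 of the 40, where 6.05%, 3.85% and 3.51% of all genes passed, and DESeq2 called 0 in each. Of the further replication, mitotic and regulator genes, 89 were tested and edgeR and DESeq2 called 0 in each pair, with 3, 2 and 2 at an unadjusted edgeR p under 0.05.

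The S phase genes had a posterior minus anterior median of 0.32, with 15 of 20 above 0, beside 0.02 for all genes. This rested on single libraries: without the E9.5 anterior library the median was 0.12, under the 0.21 of all genes, and without the E9.5 posterior library it was 0.70 beside 0.09. It was 0.21 without Epcam-positive cells. The highest was Uhrf1 at 0.88 ± 0.44 (log2 fold ± SE, edgeR adjusted p = 0.855), followed by Rrm1, the other ribonucleotide reductase subunit, at 0.80 ± 0.27 (edgeR adjusted p = 0.606) and Mcm5 at 0.67 ± 0.31 (edgeR adjusted p = 0.848). Rrm1 stood at 86.4, 137 and 132 CPM at E9.5 and then at 51.2, 86.7 and 127 CPM at these positions at E10.5, with anterior lowest at both stages. The lowest were Pcna at -0.31 ± 0.28, Rrm2 at -0.19 ± 0.35 and Slbp at -0.18 ± 0.26. Without the E9.5 posterior library, Uhrf1 (log2 fold 1.88) and Mcm5 (1.19) passed for posterior minus anterior, as did Uhrf1 for posterior minus middle (1.33). Over 10 alternatives the adjusted p of posterior minus anterior ranged from 0.00149 to 1 for Uhrf1 and from 0.0491 to 1.00 for Mcm5. No other left-out library gave a call. The summed level of 10 foregut epithelium markers in these 6 libraries ran from 35.4 CPM (E10.5 anterior, with 7 markers at 0, among them Cdh1, Krt8 and Foxa2) to 1729 CPM (E9.5 anterior). Cells with an Epcam UMI likewise ran from 2.22% (1 of 45, E10.5 anterior) to 70.4% (38 of 54, E9.5 anterior). Apart from the fit without Epcam-positive cells, the part of epithelium was not tested.

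The G2/M genes centred near 0 between posterior and anterior, with a median of 0.08 and 11 of 20 above 0, and over left-out libraries the median took both signs, from -0.13 to 0.13. Cenpe was highest at 0.44 ± 0.25, followed by Ccnb1 at 0.35 ± 0.26 and Aurkb, the passenger complex kinase, at 0.35 ± 0.27. Cenpa was lowest at -0.38 ± 0.28, with Cdk1 at -0.32 ± 0.23 and Ube2c at -0.29 ± 0.25. The smallest edgeR adjusted p among the 20 was 0.887. Against the middle libraries 15 of 20 lay below 0, with a median of -0.18. That median was -0.0127 without the E10.5 posterior library, -0.11 without the E10.5 middle one, -0.34 without the E9.5 middle one and -0.36 without the E9.5 posterior one.

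**Figure D3:**
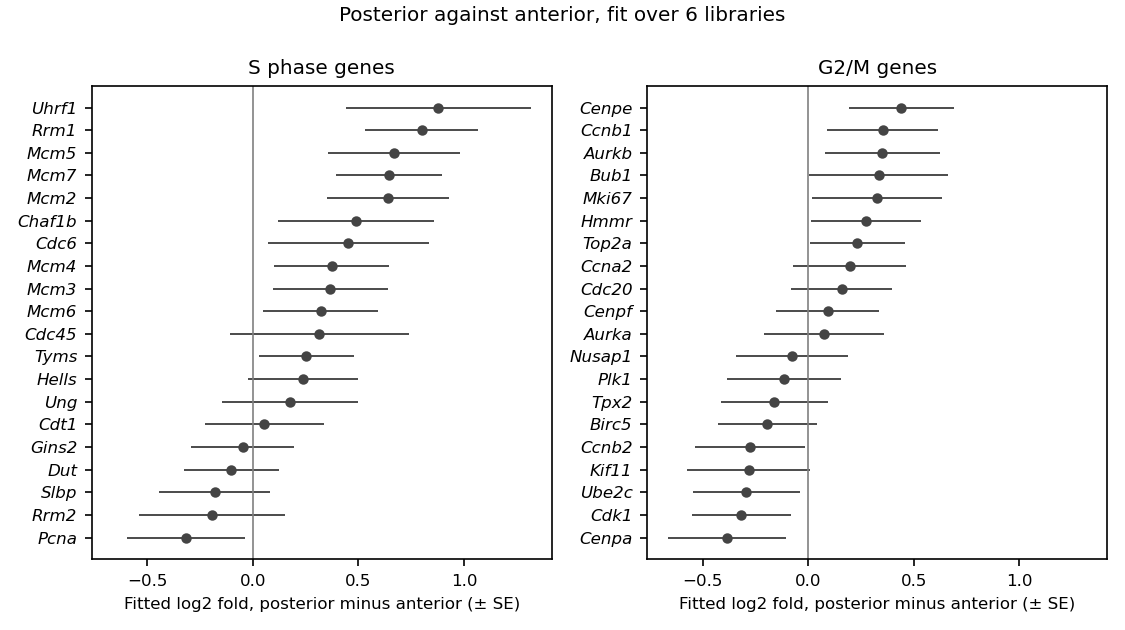
Fitted log2 fold, posterior minus anterior, of the S phase genes (left) and G2/M genes (right); points are edgeR estimates over 6 libraries and lines 1 SE. Uhrf1 is highest at 0.88 and Cenpa lowest at -0.38, and none of the 40 passed the test.

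Cells with at least 1 UMI of a marker were then compared with the other cells of the same library, in libraries with at least 10 cells of each class. Epcam marks epithelium, Barx1 foregut mesenchyme, Wnt2 posterior second heart field and lung mesoderm, and Tbx1 anterior second heart field and pharynx. The classes overlapped, since 68 of the 140 Barx1-positive E9.5 cells (48.6%) also held Wnt2, which was 25.3% of the 269 Wnt2-positive cells. A negative cell can also miss a marker at low depth. Of the 40 genes, edgeR called 0 in each class comparison, where it called 4.1% (Epcam), 1.47% (Barx1), 2.26% (Wnt2) and 0.383% (Tbx1) of all genes. At an unadjusted p under 0.05 there were 6, 1, 1 and 3 of the 40, where 14.6%, 7.05%, 8.72% and 4.7% of all genes passed, and DESeq2 called 0 in each. Of the further lists, edgeR and DESeq2 called 0, with 7, 1, 0 and 4 genes at an unadjusted edgeR p under 0.05.

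In Epcam-positive cells 16 of the 20 S phase genes lay below the other cells of their library, with a median of -0.19 over 5 libraries beside -0.0047 for all genes. With the marker and the counts taken from thinned cells the median was -0.0602. It was -0.12 without the E9.5 middle library and -0.29 when positive cells needed at least 2 UMIs. Rrm2 stood at -0.39 ± 0.12 (edgeR adjusted p = 0.118) and Rrm1 at -0.37 ± 0.13 (edgeR adjusted p = 0.162), while Ung stood at 0.24 ± 0.15. Among G2/M genes Cenpf was highest at 0.38 ± 0.11 (edgeR adjusted p = 0.0928), and the median was 0.04. The S phase share was lower in Epcam-positive cells in 4 of 5 libraries, with a mean difference of -0.0159 percentage points (two-sided exact sign permutation p = 0.188, smallest possible 0.0625). Rrm1 and Rrm2 passed without the filter on low counts, Rrm2 when positive cells needed at least 2 UMIs, and Cenpf without the cells of more than 2 times their library's median depth. Pooled over the libraries of a stage, 10 epithelial markers, Epcam among them, summed to 1977 CPM in Epcam-positive and 345 CPM in Epcam-negative E9.5 cells. At E10.5 the sums were 1785 and 102 CPM. Epcam is absent from negative cells by definition. Foregut mesenchyme markers summed to 254 and 552 CPM at E9.5 and to 757 and 880 CPM at E10.5, so positive cells held these as well.

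Tbx1-positive cells had the lower G2/M share in all 5 libraries with enough cells, but 5 libraries cannot reach a sign permutation p of 0.05. The shares of positive and negative cells were 0.259% and 0.267% in the E9.5 anterior, 0.279% and 0.327% in the E9.5 middle and 0.268% and 0.308% in the E9.5 posterior library. At E10.5 they were 0.467% and 0.507% in the anterior and 0.508% and 0.536% in the middle library. The mean difference was -0.0331 ± 0.0154 percentage points (SD over 5 libraries), with a two-sided exact sign permutation p of 0.0625, the smallest possible, and 0.5 after adjustment over the 8 share comparisons. In the outflow tract and E10.5 posterior libraries, which had 5 and 4 positive cells after thinning and did not enter the test, positive cells were higher, at 0.809% against 0.521% and 0.739% against 0.465%. Tbx1-positive cells were also deeper in 4 of the 5 tested libraries, with a median of 6057 against 5119 UMIs in the E10.5 anterior library. These shares come from counts thinned to equal depth, while the marker was read at full depth. Of the 20 G2/M genes 18 had a fitted log2 fold below 0 at full depth, with a median of -0.19 beside -0.01 for all genes. With both the marker and the counts taken from thinned cells, which left 4 libraries and 38 of the 40 genes, the G2/M median was -0.0031 beside -0.0086 for all genes, so the shift was not seen there. At full depth it was -0.12 without the E9.5 middle library, and -0.11 both without Epcam-positive cells and over the 3 libraries with 20 cells of each class. Nusap1 was the lowest of these at -0.43 ± 0.16 (edgeR adjusted p = 0.721), against -0.046 ± 0.25 in thinned cells. Cdc6, a helicase loader, was the lowest of all at -0.44 ± 0.23. Pcna at 0.29 ± 0.15 and Chaf1b, a chromatin assembly subunit, at 0.28 ± 0.18 were the highest at full depth. Pooled over the libraries of a stage, cardiomyocyte markers (7 of 8 listed were measured) summed to 677 CPM in Tbx1-positive and 2947 CPM in Tbx1-negative E9.5 cells. At E10.5 they summed to 211 and 198 CPM. The E9.5 libraries themselves ran from 197 CPM (middle) to 2848 CPM (posterior). Posterior cells numbered 64 among the positive and 354 among the negative E9.5 cells. Class and library thus cannot be told apart in these sums, and their part was not tested.

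Barx1-positive cells had the higher S phase share in all 3 libraries with enough cells, by 0.0199 ± 0.0082 percentage points (exact sign permutation p = 0.25, the smallest possible). In the E9.5 posterior library the shares were 0.324% and 0.306%, in the E10.5 middle library 0.255% and 0.226%, and in the E10.5 posterior library 0.255% and 0.242%. In the 4 libraries with 1 to 7 positive cells it was higher in 2 and lower in 2. Cdc6 was highest at 0.23 ± 0.20 and Ung next at 0.19 ± 0.15, while Kif11 at -0.23 ± 0.15 and Birc5 at -0.16 ± 0.09 were lowest. For Wnt2 the direction of the S phase share differed between libraries, with the E9.5 middle library at 0.361% and 0.338% and the E9.5 posterior at 0.291% and 0.344%. Top2a at 0.16 ± 0.08 and Hmmr at 0.11 ± 0.14 were highest, and Pcna at -0.22 ± 0.14 and Cdc6 at -0.21 ± 0.17 lowest in Wnt2-positive cells over 4 libraries. Pooled over the E9.5 libraries, cardiomyocyte markers summed to 4026 CPM in Wnt2-positive and 306 CPM in Wnt2-negative cells. Over the E10.5 libraries the sums were 848 and 83.1 CPM. No E9.5 anterior cell held Wnt2, so class and library are mixed in these sums.

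**Figure D4:**
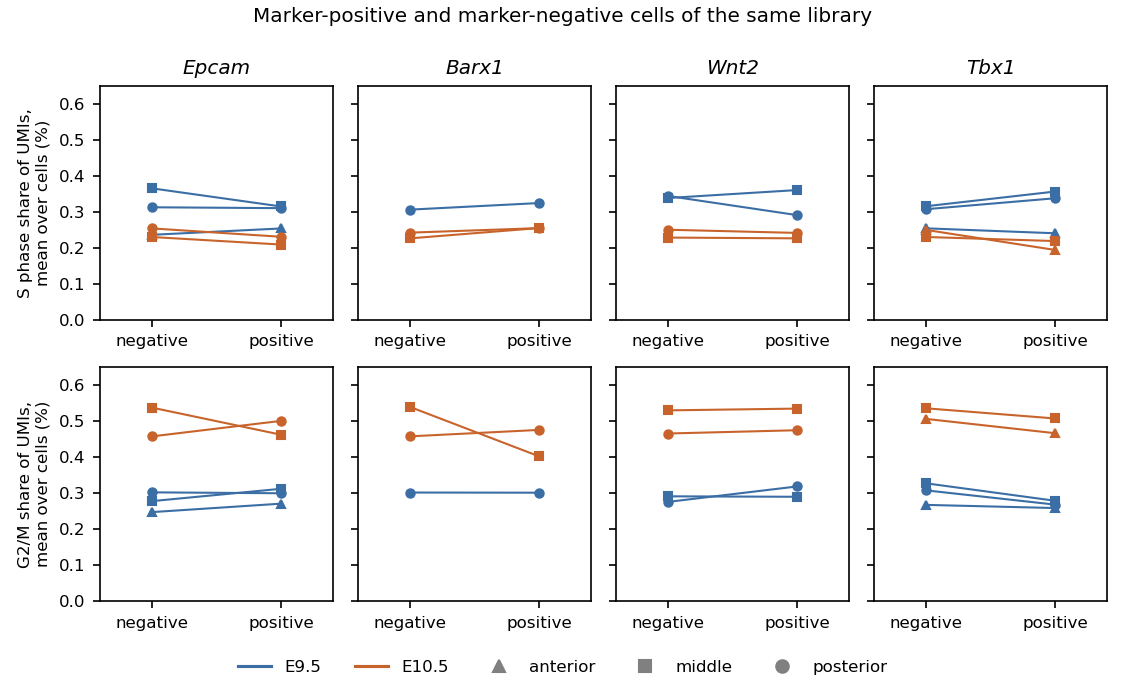
Mean summed share of UMIs (%, vertical axis) of S phase genes (top) and G2/M genes (bottom) in marker-negative and marker-positive cells; each line joins the 2 classes of 1 library, coloured by stage and marked by position. For Tbx1 all 5 G2/M lines slope down, with a mean difference of -0.0331 percentage points, and for Barx1 all 3 S phase lines slope up, with a mean of 0.0199.

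Within a library, cells high in one set tended to be low in the other. The correlation over cells of the thinned S phase share with the G2/M share was -0.34 in E9.5 posterior (n = 410 cells) and -0.54 in E10.5 posterior cells (n = 471), and it ran from -0.75 to -0.14 over all 7 libraries. Both shares come from the same cell and the same fixed number of UMIs. In E9.5 posterior cells the G2/M share also went with depth, from 0.266% in the lowest of 4 equal depth groups to 0.385% in the highest, while the S phase share went from 0.327% to 0.276%. In E10.5 posterior cells the G2/M share showed no such order, at 0.393%, 0.466%, 0.574% and 0.437% from the lowest to the highest depth group. The S phase share of the same groups was 0.282%, 0.256%, 0.223% and 0.234%, so it was again lower in the deeper groups.

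Single genes followed the same division. Over 418 E9.5 posterior cells the median Pearson r between pairs was 0.27 within the S phase set (-0.03 to 0.50), 0.41 within the G2/M set (-0.19 to 0.74) and -0.14 between the sets, with 314 of 400 pairs between them below 0. Over 560 shallower E10.5 posterior cells the medians were 0.08, 0.30 and -0.11, with 371 of 400 below 0. These values share library, depth and normalisation and are given as a description. Ube2c went most closely with the other G2/M genes (r = 0.77 at E9.5, 0.75 at E10.5), and its highest pair was with Ccnb1 (0.74). Ung had the lowest pair, with Ube2c at -0.65, and was below 0 with 19 of the 20 G2/M genes. Tyms and Cdk1 were the highest pair between the sets at 0.34. Ccnb2 stood apart from its set at E9.5, with r = 0.14 to the other members where the next lowest, Bub1, had 0.41, and all 7 G2/M pairs below 0 at E9.5 involved it. At E10.5 it did not, with 0.30 beside 0.31 for Bub1.

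**Figure D5:**
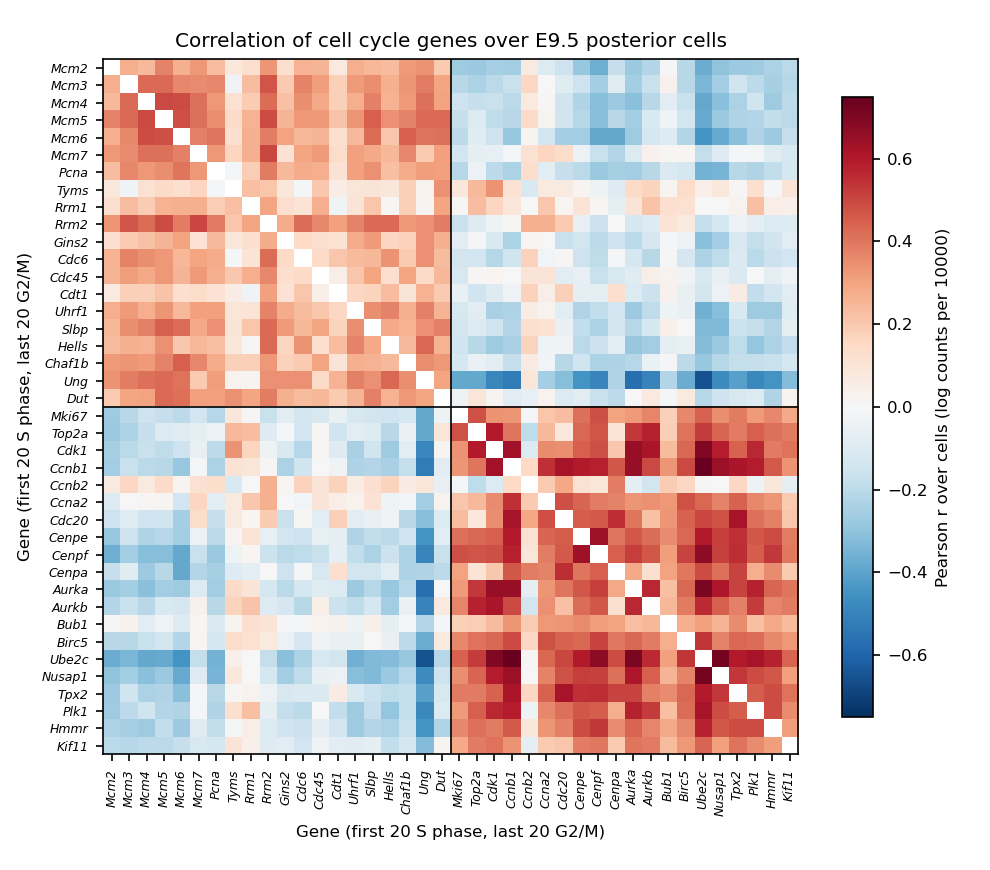
Pearson r between the 40 genes over 418 E9.5 posterior cells (log counts per 10000), S phase genes first on both axes, with the diagonal left blank. The 2 blocks on the diagonal are mostly above 0, with medians of 0.27 and 0.41, the off-diagonal blocks have a median of -0.14, and Ccnb2 and Ung stand out as pale and dark stripes.

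The genes outside the 2 sets most like each sum over E9.5 posterior cells were ranked among 9891 genes, of which 9886 could be ranked over E10.5 posterior cells. Ptma, an abundant acidic nuclear protein, was closest to the S phase sum (r = 0.65), followed by Npm1 (0.65), Ranbp1 (0.62), Nasp (0.60) and Rpa2 (0.51), and Fabp5, Ccne1, Hnrnpf and Hsp90aa1 lay between 0.48 and 0.51. Ccne1, the cyclin of S phase entry, took rank 3 over E10.5 posterior cells (r = 0.28), and Ranbp1 and Nasp took ranks 5 and 7. Ptma and Npm1 fell to ranks 20 and 50 there (r = 0.19 and 0.15), and Fabp5 and Hsp90aa1 to ranks 36 and 75. Closest to the G2/M sum were Cks2, a subunit of the CDK1 complex (0.82), Cdca8 of the passenger complex (0.73), the chromatin protein Hmgb2 (0.72) and Arl6ip1 (0.63), with Pimreg, Kif22, Spc25, Prc1, Racgap1 and Cdca3 between 0.58 and 0.63. Arl6ip1, Hmgb2 and Cks2 took ranks 1, 2 and 3 over E10.5 posterior cells, with r = 0.67, 0.66 and 0.63. The lowest there were Kif22 and Racgap1, at ranks 37 and 38 (r = 0.32 each). Arl6ip1 itself stood at 437, 404 and 391 CPM in the E9.5 libraries and between 614 and 1134 CPM in the E10.5 libraries, whereas Cks2 stood between 484 and 600.2 CPM at E9.5 and between 406 and 513 CPM at E10.5.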

How the data were processed

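The labels describe 10x Chromium libraries of trypsin-dissociated tissue sequenced on a NextSeq and aligned to mm10, and the submitters' processing notes name Cell Ranger 3.0 and Seurat. The sources used here do not give the annotation. The authors deposited unnormalised UMI counts, with genes in rows and cell barcodes in columns. The barcode suffix gives the position per the labels. Genes in both matrices were used, no cells were removed and no doublet caller was run. Cells of more than 2 times their library's median UMIs numbered 57 of 1500, and leaving them out was an alternative.

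Counts were summed per library, or per library and marker class, and fitted with edgeR 4.0.16 in R 4.3.3 (TMM, filterByExpr, glmQLFit, glmQLFTest). Position fits had stage, and class fits library, as a term. A gene was called at an adjusted p under 0.05 (Benjamini-Hochberg), and SE is the fold over the root of F. DESeq2 1.42.0 was an alternative. Fits were tested on simulated counts. The position fit called 12 of 65 genes simulated at a log2 fold of 1 in size and 46 of 63 at 2. The Epcam fit called 56 of 62 at 1. Position fits left 2 residual degrees of freedom. Thinning to 4500 UMIs drew without replacement and left out 8 E9.5 and 134 E10.5 cells of lower depth. Stage and outflow intervals are exact conditional Poisson intervals at 95%. Whether libraries came from separate animals is not given, so the p-values do not measure a spread between animals. In position fits they rest on how far position differences varied between the stages. In class fits they rest on how far class differences varied between libraries. Either spread may be technical. Promoter windows are from RefSeq. Named genes were the 5 with the highest mean CPM per set, the 3 highest and lowest position folds per set, 2-fold stage genes and the 2 highest and lowest folds per class, and others named were chosen after their values were seen. Of the 10 genes most like the S phase sum, 1 is not reported here. The genes, lists and tests were chosen with earlier results of these data known.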

Additional observations from a re-analysis of the deposited data

Results flagged for a closer look

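Position differences in the summed shares went opposite ways in the 2 stages in 4 comparisons, and whether the stages differ was not tested, since each position is 1 library per stage. The S phase share, posterior minus middle, was -0.0344 percentage points (E9.5) and 0.0207 (E10.5). Middle minus anterior the S phase values were 0.0979 (E9.5) and -0.00634 (E10.5). For the G2/M share, posterior minus anterior gave 0.0378 (E9.5) and -0.0281 (E10.5), and posterior minus middle gave 0.0109 (E9.5) and -0.0636 (E10.5).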

How the results depend on the processing

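No pairing by replicate number was made, since the labels give 1 sample per stage and no such numbers. Members called for posterior minus anterior ranged from 0 to 2 and for posterior minus middle from 0 to 1 over left-out libraries, the highest without the E9.5 posterior library. Epcam members called were 2 with no filter, 1 with positives at 2 UMIs or more and 1 without high-UMI cells (an alternative chosen after seeing the data). S phase genes lower at E10.5 at all positions ranged from 11 to 17 over left-out positions, 17 without the anterior libraries. Fewer positions then had to agree, so this count could not fall. The G2/M share, posterior minus anterior, was -0.0175 with thinning to 2000 UMIs, and the cause was not tested. Over left-out libraries some uncalled log2 folds took both signs. For posterior minus anterior, Rrm2 ranged from -0.87 to 0.51, Slbp from -0.52 to 0.15, Cenpa from -0.87 to 0.0666 and Ube2c from -0.67 to 0.0747. For Barx1, Cdc6 ranged from -0.0510 to 0.57, and for Wnt2, Cdc6 from -0.31 to 0.00211 and Hmmr from -0.10 to 0.23. Of the other values, 109 group results counted as unchanged, a label that let gene counts differ from the main count within a set factor. In addition, 279 single-gene folds kept their direction and stayed uncalled, and 6 folds passed the threshold. Calls over all genes moved more than those of members: for posterior minus anterior, posterior minus middle and middle minus anterior they were 29, 19 and 0, with DESeq2 45, 33 and 4, with no filter 260, 178 and 64, and without single libraries 95 to 332, 37 to 231 and 14 to 123. Low depth limits the E10.5 anterior and outflow tract libraries most, where Uhrf1 had 5 and 11 UMIs.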
